A study of Homo sapiens with 9 samples.

Results

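The lysosome and autophagy genes described here are 41 genes of 1 cellular system, followed through 3 transfections of HCT116 cells. They were taken by symbol from the deposited table of normalized read counts, which lists 63677 genes, on primary chromosomes and, for the 4 symbols with more than 1 row, as the row with the highest mean. All 41 were found, and all 41 were among the 17663 genes with a mean of at least 10 that were tested. By role they fall into 6 regulators, 3 lysosomal membrane proteins, 15 hydrolases and hydrolase cofactors, 5 proton pump genes and 12 autophagosome genes. HCT116 is an established human colon carcinoma line, labelled here as wild type. Polyadenylated RNA was sequenced 48 h after lipid transfection of a small interfering RNA (siRNA) in 9 libraries. The groups are siControl (a control siRNA), siRNF40 (against RNF40, a subunit of the ligase that places ubiquitin on histone H2B) and siTG2 (against TGM2, which encodes transglutaminase 2), with 3 libraries each. The series concerns histone marks and transcription in colorectal cancer, and the labels name no treatment that acts on lysosomes. All groups therefore share a single cell line and the transfection, and each knockdown lasted for the same time.

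RNF40 read 3004, 2784 and 2565 normalized reads in siControl, 535, 497 and 528 in siRNF40 and 2249, 2506 and 2158 in siTG2. Its siRNF40 mean was 18.7% of the siControl mean. TGM2 read 559, 702 and 554 normalized reads in siControl, 839, 829.6 and 963 in siRNF40 and 59.4, 121 and 155 in siTG2, and its siTG2 mean was 18.5% of the siControl mean. Each targeted transcript was thus lowest in all 3 libraries labelled with its siRNA. TGM2 lay above siControl in every siRNF40 library, but its log2 fold change of 0.54 (SE 0.23, adjusted p = 0.0633) did not pass. It was called higher there in 6 of 19 alternative fits, among them edgeR (adjusted p = 0.024). RNF40 also had a log2 fold change of -0.27 (SE 0.085, adjusted p = 0.0192) in siTG2, a call that was lost when siControl replicate 1 or 2 or siTG2 replicate 1 or 3 was left out (adjusted p from 0.0576 to 0.118) and under equal library totals (adjusted p = 0.26) or quantile normalization (adjusted p = 0.209).

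As background, lysosomes are acidic compartments in which hydrolases break down proteins, lipids, glycans and glycogen. A proton pump, the vacuolar ATPase, keeps them acidic, and membrane glycoproteins and channels line them. In autophagy a double membrane closes around cytoplasm to form an autophagosome, which then fuses with a lysosome. Many of these genes share the CLEAR element in their promoters, the site bound by the transcription factors TFEB, TFE3 and MITF. These factors stay in the cytoplasm while the kinase complex mTORC1 is active at the lysosome surface, and enter the nucleus when nutrients are short. In the intestinal epithelium the pathway is known for its roles in defence against bacteria and in the secretory cells of the crypt.

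The libraries held 29161285 to 35743918 reads in genes, and 1 read equals 0.88 to 1.10 of the normalized units used below. After the authors' scaling, the siTG2 libraries summed to a lower total than the others and held a read in more genes, 27123 to 27602 against 25162 to 25548 in the other 6 libraries. Of 11 markers of colon epithelium 9 were tested, and VIL1 and LGALS4 had means under 10. The whole list had siControl sums of 99872 to 109474, siRNF40 sums of 147054 to 173077 and siTG2 sums of 87696 to 99759.9. KRT8 had the highest mean of this list, and such sums weigh the most abundant markers most. Of 11 leukocyte markers 2 were tested, and the whole list had siControl sums of 32 to 60.9, siRNF40 sums of 50.9 to 75.5 and siTG2 sums of 55.7 to 102, with TYROBP and CD3E at 0 in every library. Of 7 fibroblast markers 2 were tested, and the whole list had siControl sums of 822 to 997, siRNF40 sums of 1374 to 1709.9 and siTG2 sums of 1016 to 1176, mostly from COL1A1, with DCN and LUM at 0. Of 4 melanocyte markers 2 were tested, and the whole list had siControl sums of 135 to 162, siRNF40 sums of 179 to 245 and siTG2 sums of 179.9 to 201, mostly from PMEL, with TYR at 0. The part of these differences in the results below was not tested. In RNA of bulk cells, fewer cells of a type and less RNA per cell cannot be told apart.

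In siRNF40, 15 of the 41 genes were higher than in siControl, 7 were lower and 19 did not pass the test. A gene was called at an adjusted p under 0.05 in limma, fitted across all tested genes, and the fold changes are differences of log2(normalized count + 1). The called share was 53.7%, beside 45.3% of all tested genes, with 36.6% higher beside 21.7% and 17.1% lower beside 23.6%. All 41 members had means above 100, and among the 12257 genes with such means 57.8% were called, 27.2% higher and 30.6% lower (a comparison set chosen after the data were seen). The called share of the members was thus not above that of these 12257 genes, a set with a lower limit but not matched by level. Their share called higher was above that of this set, and their share called lower was below it. The median log2 fold change of the members was 0.15, beside 0.016 for all tested genes. The groups did not overlap for 28 members, 19 above and 9 below siControl, beside 53.2% of all tested genes. The highest log2 fold changes were those of TFEB, GABARAPL1 and ULK1, and the lowest those of LIPA, UVRAG and RRAGC.

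In siTG2, 6 of the 41 genes were higher than in siControl, 11 were lower and 24 did not pass. The called share of 41.5% stood beside 31.3% of all tested genes, with 14.6% higher beside 12.8% and 26.8% lower beside 18.5%. Among genes with means of at least 100 the shares were 40.0% called, 14.3% higher and 25.7% lower, which the members' shares nearly equal. The median was -0.034, beside -0.0069 for all tested genes. The groups did not overlap for 24 members, 10 above and 14 below siControl, beside 46.5% of all tested genes. TPP1, CTSD and ULK1 had the lowest log2 fold changes, and LIPA the highest. The balance in siTG2 depends on the scaling. With libraries scaled to equal totals the median of all genes moved from -0.0069 to 0.13, the share of all calls that were higher moved from 40.9% to 67.2%, and the members split into 13 higher and 9 lower. The siTG2 values below are therefore relative to the authors' scaling. Leaving out siTG2 replicate 2 left 3 members higher in place of 6.

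**Figure D1:**
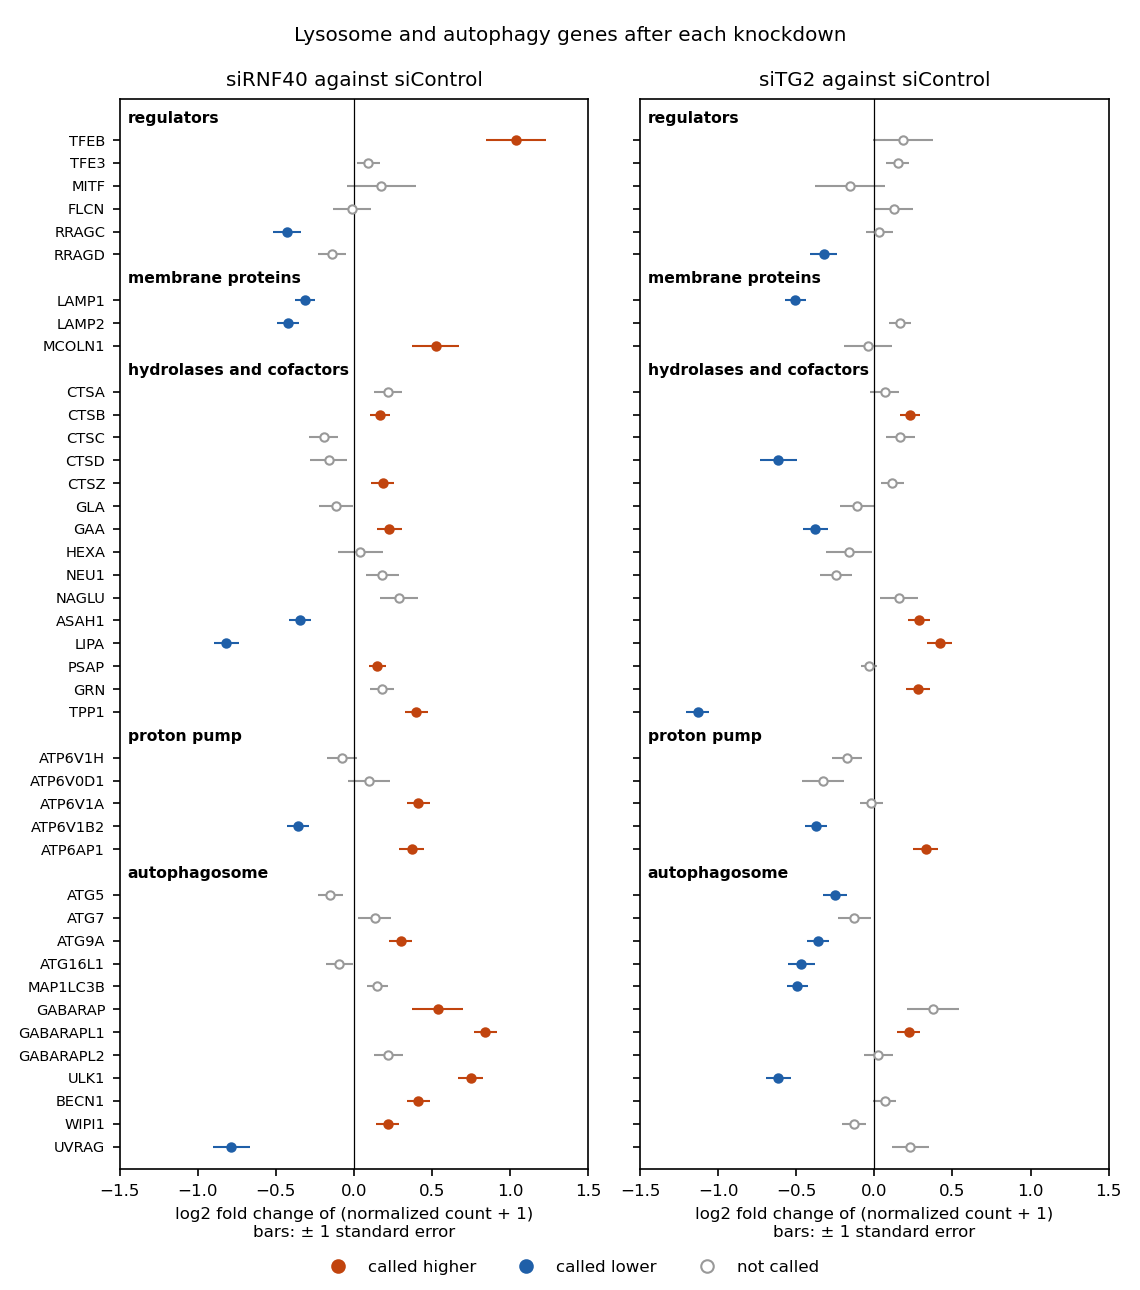
Log2 fold change of (normalized count + 1) of each gene in siRNF40 (left) and siTG2 (right) against siControl, by role, with bars of 1 standard error either way; filled points passed the test (orange higher, blue lower) and open points did not. TFEB at 1.04 and LIPA at -0.82 mark the ends of the left panel, and LIPA at 0.42 and TPP1 at -1.13 those of the right.

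Per kilobase of exon, levels in siControl spread over a wide range. PSAP, the precursor of the saposins that help lipid hydrolases, was highest at 8298 normalized reads per kb. MAP1LC3B, whose product coats autophagosomes, followed at 3848, and then LAMP1 at 1425, GRN at 1274, CTSZ at 1254 and CTSB at 1144. TFE3 stood at 389 per kb, while its relatives TFEB at 21 and MITF at 18.4 were the lowest of the 41 genes. These lengths are the union of annotated exons in GENCODE 29, so a gene with long, little used exons reads low on this scale. HEXA, at 27.9 per kb, has such a union of 12611 bases.

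**Figure D2:**
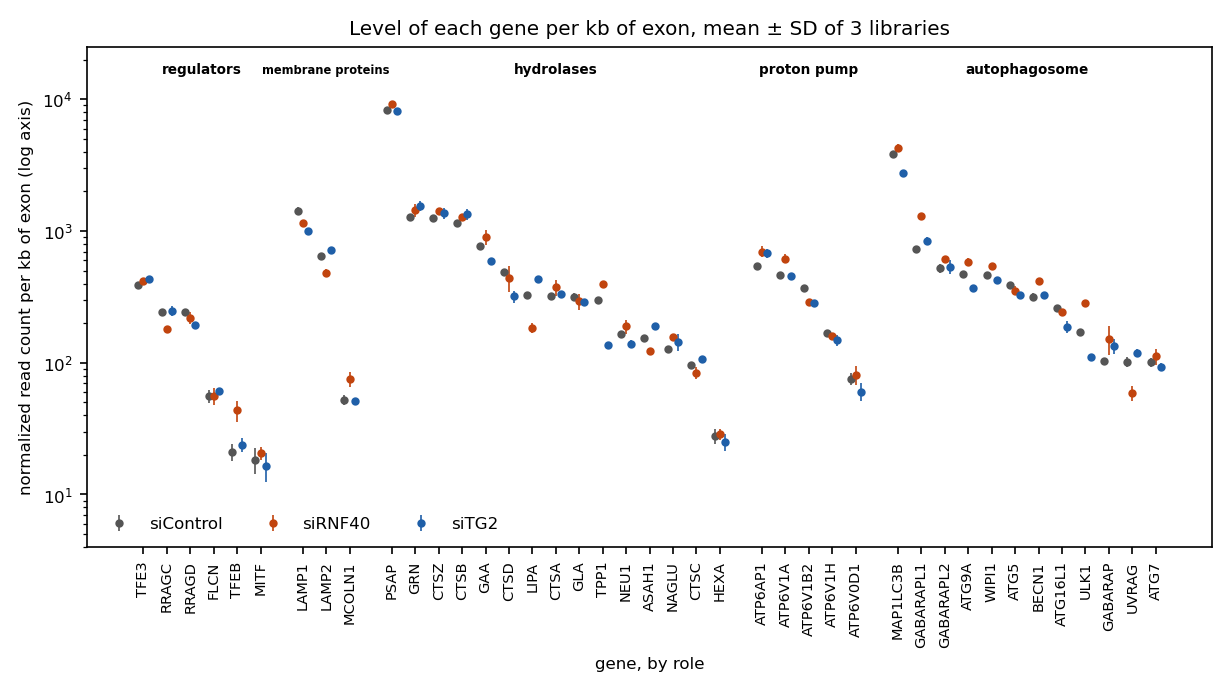
Mean normalized read count per kb of exon (log axis) of each gene in siControl (grey), siRNF40 (orange) and siTG2 (blue), by role and in the order of the siControl level, with bars of 1 SD of 3 libraries. The groups of a gene lie close together next to the spread between genes, which runs from TFEB and MITF near the bottom to PSAP at the top.

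TFEB was the regulator with the largest change. It read 104, 114 and 138 normalized reads in siControl, 195, 271 and 271 in siRNF40 and 125, 153 and 125 in siTG2. All 3 siRNF40 libraries lay above all siControl and siTG2 libraries, and the siControl and siTG2 libraries overlapped. The log2 fold change was 1.04 (SE 0.19, adjusted p = 0.000224) in siRNF40, a mean 2.07 times that of siControl, and 0.18 (SE 0.19, adjusted p = 0.517) in siTG2. The direct difference between siRNF40 and siTG2 was 0.85 (SE 0.19, adjusted p = 0.00103). TFEB lies at chr6:41651716-41703997 on the minus strand of hg19, the build of the coordinates in the files.

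TFE3, the relative of TFEB with the higher level in these cells, read 1631, 1636 and 1733 normalized reads in siControl, 1770.4, 1703 and 1857 in siRNF40 and 1765, 1912 and 1874 in siTG2. The siTG2 libraries lay just above the siControl libraries, and neither knockdown passed the test, at log2 fold changes of 0.092 (SE 0.074, adjusted p = 0.333) and 0.15 (SE 0.074, adjusted p = 0.134). MITF, the third factor of the family and the melanocyte regulator, read 163, 102 and 131 normalized reads in siControl, 142, 135 and 165 in siRNF40 and 153, 106 and 98.7 in siTG2, and all 3 groups overlapped. Its log2 fold changes were 0.17 (SE 0.22, adjusted p = 0.557) and -0.15 (SE 0.22, adjusted p = 0.645). A high TFEB transcript in siRNF40 thus stood beside TFE3 and MITF levels whose differences from siControl did not pass there. For siTG2 the result for TFE3 depends on the scaling. TFE3 was called higher in siTG2 than siControl under equal library totals, at 0.29 (adjusted p = 0.00491), and quantile normalization, at 0.27 (adjusted p = 0.0099). Under equal library totals it was also called lower in siRNF40 than in siTG2, at -0.23 (adjusted p = 0.0116).

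RRAGC and RRAGD encode Rag GTPases, which dock mTORC1 on the lysosome. RRAGC read 1319.7, 1228 and 1202 normalized reads in siControl, 892, 930.4 and 961 in siRNF40 and 1152, 1388 and 1303 in siTG2. It was below siControl in every siRNF40 library and overlapped with it in siTG2, with log2 fold changes of -0.43 (SE 0.088, adjusted p = 0.000564) and 0.032 (SE 0.088, adjusted p = 0.82). RRAGD read 1214, 1253 and 1201 normalized reads in siControl, 1234, 1092 and 1008 in siRNF40 and 934, 997 and 998 in siTG2, and it was the siTG2 libraries that lay below all siControl libraries. Its log2 fold change was -0.32 (SE 0.089, adjusted p = 0.00878) in siTG2 and -0.14 (SE 0.089, adjusted p = 0.207) in siRNF40. The RRAGD call in siTG2 was lost under equal library totals (adjusted p = 0.12). FLCN, or folliculin, which activates the GTPase cycle of RRAGC and RRAGD, overlapped between groups, at log2 fold changes of -0.012 and 0.12.

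Promoters of these genes were searched for the CLEAR element, taken as the longest word below, and for shorter words inside it. Promoter sequences, 250 bases before to 50 after the start site, were taken from RefSeq on GRCh38.p14. An entry was found for 30 of the 41 genes, and the first listed promoter of each gene was used. The words searched were CACGTG, its extension TCACGTGA, and the longest form, TCACGTGA with G before and C after it, each of which is its own reverse complement, so that both strands are covered, and each longer word holds the shorter ones. CACGTG was in 8 of 30 promoters (26.7%), beside 9.88% of the 10213 promoters of tested protein-coding genes and 20.3% of the 143 promoters of other pathway genes from the lists below. TCACGTGA was in 5 (16.7% beside 1.87% and 9.09%) and the longest form in 2 (6.67% beside 0.774% and 4.20%). The 8 genes were RRAGC, LAMP1, MCOLN1, CTSA, CTSD, GAA, NEU1 and ATP6V0D1. None of the 11 promoters of autophagosome genes held CACGTG, which says only that these letters are not in this window. The genes with no entry were RRAGD, LAMP2, CTSB, HEXA, NAGLU, ASAH1, PSAP, ATP6V1H, ATP6V1A, ATP6V1B2 and UVRAG.

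The promoters of 4 of these genes are shown, with CACGTG and its longer forms in capitals. MCOLN1 (chr19:7522374-7522673, + strand) and GAA (chr17:80101331-80101630, + strand) are the 2 genes with the longest form, LAMP1 (chr13:113296989-113297288, + strand) has the most copies and was lower in both knockdowns, and CTSD (chr11:1763878-1764177, - strand) has 1 copy and was lower in siTG2.
MCOLN1: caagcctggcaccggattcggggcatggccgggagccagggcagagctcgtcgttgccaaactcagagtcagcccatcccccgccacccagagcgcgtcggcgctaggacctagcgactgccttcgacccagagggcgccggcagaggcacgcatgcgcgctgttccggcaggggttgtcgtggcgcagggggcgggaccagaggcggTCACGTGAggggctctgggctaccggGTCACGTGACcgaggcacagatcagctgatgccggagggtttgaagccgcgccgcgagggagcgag
GAA: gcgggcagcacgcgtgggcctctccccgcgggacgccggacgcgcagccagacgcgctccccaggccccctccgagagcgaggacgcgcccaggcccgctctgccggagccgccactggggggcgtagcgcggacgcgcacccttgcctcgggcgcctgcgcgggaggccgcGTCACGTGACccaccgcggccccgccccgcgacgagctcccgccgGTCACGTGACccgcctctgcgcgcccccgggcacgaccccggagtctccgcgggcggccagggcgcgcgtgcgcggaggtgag
LAMP1: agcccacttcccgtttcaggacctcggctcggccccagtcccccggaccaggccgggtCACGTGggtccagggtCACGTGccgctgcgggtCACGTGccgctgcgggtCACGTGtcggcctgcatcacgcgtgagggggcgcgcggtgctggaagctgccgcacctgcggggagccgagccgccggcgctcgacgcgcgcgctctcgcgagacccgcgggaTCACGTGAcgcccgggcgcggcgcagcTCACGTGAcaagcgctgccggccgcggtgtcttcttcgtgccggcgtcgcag
CTSD: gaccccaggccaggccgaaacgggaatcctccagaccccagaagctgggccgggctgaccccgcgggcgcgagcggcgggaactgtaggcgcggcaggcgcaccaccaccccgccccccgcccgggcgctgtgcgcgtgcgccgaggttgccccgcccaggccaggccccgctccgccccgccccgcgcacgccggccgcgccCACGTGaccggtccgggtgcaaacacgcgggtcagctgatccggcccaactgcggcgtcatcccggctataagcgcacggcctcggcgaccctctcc
CACGTG occurs 2 times in MCOLN1, 2 times in GAA and 6 times in LAMP1. These are matches of letters, and binding was not measured in these libraries.

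The calls of genes with and without CACGTG can be set side by side. Of the 8 with the word, 2 were higher in siRNF40 (MCOLN1 and GAA) and 2 lower (RRAGC and LAMP1), with a median log2 fold change of 0.14, and of the 22 without it 10 were higher and 1 lower, with a median of 0.18. In siTG2 the 8 genes gave 0 higher and 3 lower (LAMP1, CTSD and GAA), with a median of -0.29. The 22 others gave 4 higher and 6 lower, with a median of 0.046. Between the knockdowns, siRNF40 was higher in 6 and lower in 1 of the 8 genes, with a median of 0.42, and higher in 10 and lower in 2 of the 22, with a median of 0.23. Of all tested genes 21.7% were higher and 23.6% lower in siRNF40, 12.8% and 18.5% in siTG2, and 26.6% and 26.6% between the knockdowns. These shares were not counted for all genes with and without CACGTG. No test was made of the splits of the members, and the siTG2 values depend on the scaling, as given above.

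MCOLN1, a cation channel that releases calcium from lysosomes, was the membrane gene that rose in siRNF40. It read 215, 220.2 and 187 normalized reads in siControl, 271, 284 and 343 in siRNF40 and 214, 197 and 193 in siTG2, with every siRNF40 library above every other library. The log2 fold change was 0.52 (SE 0.15, adjusted p = 0.00864) in siRNF40 and -0.042 (SE 0.15, adjusted p = 0.867) in siTG2, and 0.56 (SE 0.15, adjusted p = 0.00409) between them. Its exons share 6 bases with PNPLA6 on the same strand, a gene at 0.39 in siRNF40 by the same scale.

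LAMP1 and LAMP2 encode the main glycoproteins of the lysosomal membrane, and LAMP2 also serves chaperone-mediated autophagy. LAMP1 read 8629, 8328 and 7580.2 normalized reads in siControl, 6429.9, 6532 and 6740.3 in siRNF40 and 5376, 5968 and 5939.5 in siTG2. Both knockdowns lay below siControl in all libraries, at log2 fold changes of -0.31 (SE 0.066, adjusted p = 0.000635) in siRNF40 and -0.51 (SE 0.066, adjusted p = 9.3e-06) in siTG2. LAMP2 read 3444, 3423 and 3775 normalized reads in siControl, 2536, 2870.0 and 2537 in siRNF40 and 4189, 3868 and 3867 in siTG2, and here siRNF40 lay below both other groups while siTG2 lay above siControl. The siRNF40 log2 fold change was -0.42 (SE 0.072, adjusted p = 8.51e-05), and its siTG2 value of 0.16 (SE 0.072, adjusted p = 0.0916) did not pass. That siTG2 value was called under equal library totals, at 0.31 (adjusted p = 0.00319), and quantile normalization, at 0.32 (adjusted p = 0.00179). The direct difference between siRNF40 and siTG2 was -0.59 (SE 0.072, adjusted p = 1.3e-06) for LAMP2. For LAMP1 it was 0.19 (SE 0.066, adjusted p = 0.0201), which was lost without siTG2 replicate 1 (adjusted p = 0.108) and under equal library totals (adjusted p = 0.872).

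Of the 15 hydrolases and cofactors, 5 were higher and 2 lower in siRNF40, with a median log2 fold change of 0.16. All tested genes had shares of 21.7% higher and 23.6% lower there, and genes with means of at least 100 had 27.2% and 30.6%. In siTG2, 4 were higher and 3 lower, with a median of 0.065. All tested genes had 12.8% and 18.5% there, and genes with means of at least 100 had 14.3% and 25.7%. The 4 called higher became 6 under equal library totals and 7 under quantile normalization. Of all 17663 tested genes, 2263 were higher in siTG2 under the authors' scaling, 3872 under equal library totals and 2606 under quantile normalization. LIPA had the largest siRNF40 change of the 15. It encodes lysosomal acid lipase, which releases cholesterol and fatty acids from the lipids of endocytosed lipoproteins. It read 1589, 1681 and 1533 normalized reads in siControl, 840.3, 992 and 895 in siRNF40 and 2186, 2079 and 2148 in siTG2. All siRNF40 libraries were below and all siTG2 libraries above all siControl libraries, at log2 fold changes of -0.82 (SE 0.082, adjusted p = 1.59e-07) and 0.42 (SE 0.082, adjusted p = 0.000639). The direct difference was -1.24 (SE 0.082, adjusted p = 3.61e-10), the lowest of the 41 genes. The span of LIPA at chr10:90973326-91174314 (hg19, minus strand) holds the genes IFIT1, IFIT2 and IFIT3 on the other strand, which stood at -1.98, -1.0 and -1.41 in siRNF40. Their exons share 65 bases with those of LIPA, all with IFIT2, and counting by strand is not stated.

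TPP1, tripeptidyl peptidase, a protease that trims peptides from their ends, had the lowest siTG2 value of all 41 genes. It read 2034, 2013 and 1873 normalized reads in siControl, 2547, 2561 and 2697 in siRNF40 and 953, 861 and 887 in siTG2. The 3 groups did not overlap, with siTG2 lowest and siRNF40 highest. The log2 fold change was -1.13 (SE 0.076, adjusted p = 1.91e-09) in siTG2, a mean of 45.6% of siControl, and 0.40 (SE 0.076, adjusted p = 0.00025) in siRNF40. The direct difference of 1.53 (SE 0.076, adjusted p = 7.53e-12) was the highest of the 41.

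ASAH1, acid ceramidase, followed LIPA in direction. It read 2477, 2369.8 and 2306 normalized reads in siControl, 1873, 1911 and 1841 in siRNF40 and 2826, 3052 and 2843 in siTG2, again with siRNF40 below and siTG2 above siControl in every library. The log2 fold changes were -0.35 (SE 0.068, adjusted p = 0.000382) and 0.29 (SE 0.068, adjusted p = 0.00339). GAA, the glucosidase that digests glycogen in lysosomes, followed TPP1, with 3868, 4212 and 3852 normalized reads in siControl, 4313, 4320.2 and 5385 in siRNF40 and 2983, 3224 and 2977 in siTG2. Its siTG2 libraries lay below siControl, at a log2 fold change of -0.38 (SE 0.081, adjusted p = 0.00151). Its siRNF40 value of 0.23 (SE 0.081, adjusted p = 0.03) rested on individual libraries, chiefly siRNF40 replicate 3, the highest of its group, with adjusted p from 0.102 to 0.175 without siControl replicate 1 or 3 or siRNF40 replicate 3.

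CTSD, cathepsin D, the main aspartic protease of lysosomes, read 1532, 1553 and 1486 normalized reads in siControl, 1188, 1225 and 1730.2 in siRNF40 and 885, 1097 and 1014 in siTG2. The siTG2 libraries lay below all siControl libraries, at a log2 fold change of -0.61 (SE 0.12, adjusted p = 0.00055). In siRNF40, replicates 1 and 2 lay below and replicate 3 above siControl, and the value of -0.16 (SE 0.12, adjusted p = 0.28) did not pass. Without siRNF40 replicate 3 it was -0.34 and passed (adjusted p = 0.0067). A clone-named antisense gene, AC068580.6, covers 15.8% of the CTSD exons with a mean of 18.7 reads.

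**Figure D3:**
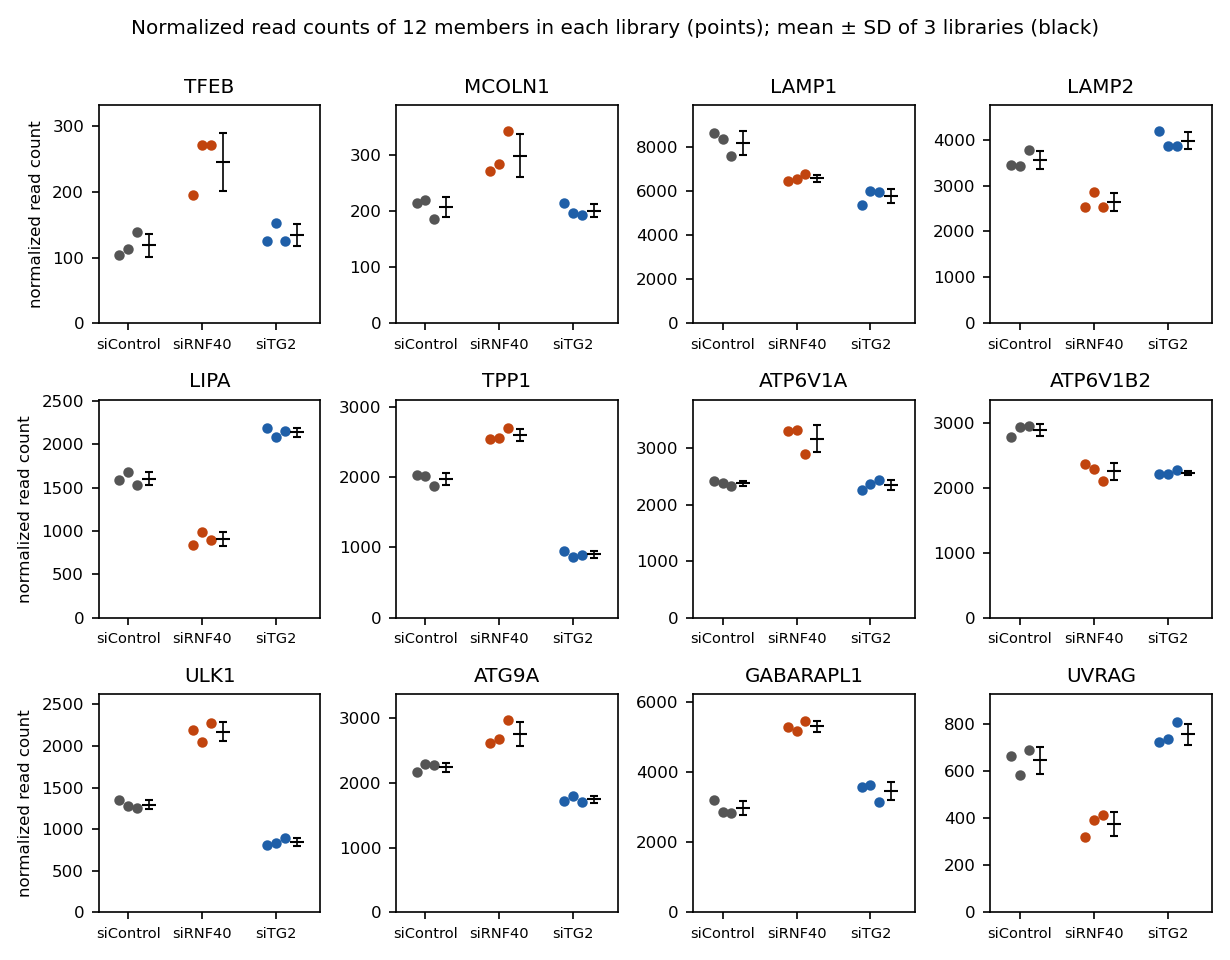
Normalized read counts of 12 genes in each of the 9 libraries (coloured points, siControl grey, siRNF40 orange, siTG2 blue; axes start at 0), with the mean and SD of each group in black. TPP1, LIPA, ULK1 and ATG9A show siRNF40 and siTG2 on opposite sides of siControl, LAMP1 and ATP6V1B2 show both below it, and TFEB shows siRNF40 alone above it.

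CTSB, CTSZ and PSAP rose by small amounts in siRNF40. CTSB, a cysteine protease, had 8501 ± 168 normalized reads in siControl (SD, n = 3), 9530.0 ± 152 in siRNF40 and 9983 ± 956 in siTG2. Its log2 fold changes were 0.16 (SE 0.066, adjusted p = 0.0497) and 0.23 (SE 0.066, adjusted p = 0.013). The siRNF40 call was at the threshold and was lost on leaving out any of 7 libraries (adjusted p from 0.0678 to 0.137: each siControl or siRNF40 library, or siTG2 replicate 3). The siTG2 call was lost without siControl replicate 3 or siTG2 replicate 2 (adjusted p from 0.052 to 0.0768). CTSZ, another cysteine protease, rose by a log2 fold change of 0.18 (SE 0.073, adjusted p = 0.0488) in siRNF40 and lost this call on leaving out the same 7 libraries (adjusted p from 0.0616 to 0.128). PSAP rose by a log2 fold change of 0.15 (SE 0.053, adjusted p = 0.0285), with adjusted p from 0.0514 to 0.121 without siControl replicate 1, 2 or 3 or siRNF40 replicate 2, and its siRNF40 and siTG2 differences change sign under quantile normalization. Under equal library totals the siRNF40 calls of CTSB, CTSZ, PSAP, GAA and WIPI1 were lost (adjusted p from 0.0617 to 0.104). Leaving out siControl replicate 1 or 3 left 1 hydrolase called higher in siRNF40 in place of 5, leaving out siControl replicate 2 left 2, and leaving out siRNF40 replicate 2 or 3 or siTG2 replicate 3 left 3.

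GRN, progranulin, a secreted and lysosomal cofactor, rose in siTG2 from 4689 ± 147 to 5704 ± 490.4, a log2 fold change of 0.28 (SE 0.079, adjusted p = 0.0106). Without siTG2 replicate 2 the adjusted p was 0.0571, and 2 hydrolases were called higher in siTG2 in place of 4. Its siRNF40 value was 0.18 (SE 0.079, adjusted p = 0.072), and the direct difference of -0.10 (SE 0.079, adjusted p = 0.299) did not pass. CTSA, CTSC, GLA, HEXA, NEU1 and NAGLU passed in neither knockdown. CTSC is a cysteine protease, CTSA protects NEU1, a sialidase, in a complex, GLA and HEXA trim glycolipids, and NAGLU acts on heparan sulfate. Their siRNF40 values ran from -0.19 (CTSC) to 0.29 (NAGLU), and their siTG2 values from -0.24 (NEU1) to 0.17 (CTSC).

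Of the 5 proton pump genes, ATP6V1A and ATP6AP1 rose and ATP6V1B2 fell in siRNF40, and 1 was higher and 1 lower in siTG2. All tested genes had 21.7% higher and 23.6% lower in siRNF40, and 12.8% and 18.5% in siTG2. Genes with means of at least 100 had 27.2% and 30.6% in siRNF40, and 14.3% and 25.7% in siTG2. ATP6V1A encodes the catalytic subunit of the pump's cytosolic head. It read 2423, 2377 and 2328 normalized reads in siControl, 3299, 3313 and 2887 in siRNF40 and 2251, 2358 and 2426 in siTG2, with siRNF40 above the other groups, which overlapped. The log2 fold changes were 0.41 (SE 0.072, adjusted p = 0.000114) and -0.02 (SE 0.072, adjusted p = 0.87), and the direct difference was 0.43 (SE 0.072, adjusted p = 4.99e-05).

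ATP6V1B2, the other subunit of the same ring, read 2795, 2935 and 2954 normalized reads in siControl, 2373, 2291 and 2117 in siRNF40 and 2224, 2211 and 2271 in siTG2. Both knockdowns lay below siControl in every library and overlapped with each other, at log2 fold changes of -0.36 (SE 0.069, adjusted p = 0.000301) and -0.37 (SE 0.069, adjusted p = 0.000392). In siRNF40 the partner subunits of the catalytic ring thus had transcripts that moved in opposite directions. ATP6AP1, an accessory protein needed for assembly of the membrane part, read 2717, 2726 and 2468 normalized reads in siControl, 3289.9, 3169 and 3776 in siRNF40 and 3033, 3584 and 3327 in siTG2. It was above siControl in every library of both knockdowns, at log2 fold changes of 0.37 (SE 0.081, adjusted p = 0.000985) and 0.33 (SE 0.081, adjusted p = 0.00427). ATP6V1H and ATP6V0D1 passed in neither knockdown, with ATP6V1H at log2 fold changes of -0.077 and -0.18 and ATP6V0D1 at log2 fold changes of 0.094 and -0.33.

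Of the 12 autophagosome genes, 6 were higher and 1 lower in siRNF40, with a median log2 fold change of 0.22, beside 21.7% higher and 23.6% lower of all tested genes. In siTG2, 1 was higher and 5 lower, with a median of -0.13, beside 12.8% and 18.5%. Genes with means of at least 100 had 27.2% higher and 30.6% lower in siRNF40, and 14.3% and 25.7% in siTG2. Under equal library totals the siTG2 counts were 4 higher and 4 lower, and the median was 0.013. All 17663 tested genes then gave 3872 higher and 1890 lower, with a median of 0.13. ULK1, the kinase that starts autophagosome formation, read 1356, 1274 and 1249.9 normalized reads in siControl, 2189, 2049 and 2273 in siRNF40 and 808, 829.8 and 895 in siTG2. The 3 groups did not overlap, with siRNF40 highest and siTG2 lowest. The log2 fold changes were 0.75 (SE 0.081, adjusted p = 4.44e-07) and -0.61 (SE 0.081, adjusted p = 1.05e-05), and the direct difference was 1.36 (SE 0.081, adjusted p = 8.88e-11).

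ATG9A, a lipid scramblase on the vesicles that feed the forming membrane, read 2164, 2287 and 2273 normalized reads in siControl, 2625, 2679 and 2968 in siRNF40 and 1729, 1801 and 1706 in siTG2, with the groups in the same order as for ULK1. It stood at log2 fold changes of 0.30 (SE 0.072, adjusted p = 0.00225) in siRNF40 and -0.36 (SE 0.072, adjusted p = 0.000759) in siTG2. BECN1 and UVRAG belong to the lipid kinase complex that marks membranes for autophagy and for endosome maturation. BECN1 rose from 2016 ± 138 to 2677 ± 121 in siRNF40, a log2 fold change of 0.41 (SE 0.074, adjusted p = 0.000163), and was at a log2 fold change of 0.065 (SE 0.074, adjusted p = 0.548) in siTG2. UVRAG went the other way. It read 663, 583 and 692 normalized reads in siControl, 319, 394 and 413 in siRNF40 and 724, 736 and 809 in siTG2, with siRNF40 below and siTG2 above all siControl libraries. It fell in siRNF40, at a log2 fold change of -0.79 (SE 0.12, adjusted p = 2.22e-05), while the siTG2 value of 0.23 (SE 0.12, adjusted p = 0.151) did not pass. Under equal library totals both genes were called higher in siTG2, BECN1 at 0.21 (adjusted p = 0.0382) and UVRAG at 0.37 (adjusted p = 0.0216).

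The ubiquitin-like proteins that are joined to the autophagosome membrane differed among themselves. GABARAPL1 read 3193, 2853 and 2843 normalized reads in siControl, 5288, 5158 and 5454 in siRNF40 and 3574, 3623 and 3156 in siTG2. Every siRNF40 library exceeded every other library, at a log2 fold change of 0.84 (SE 0.072, adjusted p = 2.09e-08). In siTG2 it was 0.22 (SE 0.072, adjusted p = 0.0254), with overlap of siTG2 replicate 3 and siControl, and the call was lost without siControl replicate 2 or 3 or siTG2 replicate 1 or 2 (adjusted p from 0.09 to 0.105) and without a filter on low values (adjusted p = 0.0525). GABARAP read 226, 233 and 237 normalized reads in siControl, 282, 306 and 439.7 in siRNF40 and 305, 341 and 262 in siTG2, above siControl in all libraries of both knockdowns, with siRNF40 replicate 3 apart from the other 2 of its group. Its values were 0.54 (SE 0.16, adjusted p = 0.0122) and 0.37 (SE 0.16, adjusted p = 0.0924). Without siRNF40 replicate 3 the first was not called (adjusted p = 0.0891) and the second was (adjusted p = 0.0458). GABARAPL2 passed in neither, at log2 fold changes of 0.22 and 0.026.

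MAP1LC3B, the most abundant autophagosome gene per kb, read 20787, 20646 and 19905 normalized reads in siControl, 20802, 23357 and 23958 in siRNF40 and 13618, 14498 and 15535 in siTG2. The siTG2 libraries lay below all others, at a log2 fold change of -0.49 (SE 0.066, adjusted p = 1.23e-05), and the siRNF40 value was 0.15 (SE 0.066, adjusted p = 0.073). The near copy MAP1LC3B2 held 39.6 to 101 normalized reads, and reads that match both were not analysed here. ATG16L1, which directs the joining of these proteins to membranes, read 1585, 1521 and 1602 normalized reads in siControl, 1487, 1523 and 1399 in siRNF40 and 1104, 1043 and 1269 in siTG2. It was below siControl and siRNF40 in every siTG2 library, at a log2 fold change of -0.47 (SE 0.085, adjusted p = 0.000332), and overlapped between siRNF40 and siControl at a log2 fold change of -0.10 (SE 0.085, adjusted p = 0.388). Its partner ATG5 fell in siTG2, at a log2 fold change of -0.25 (SE 0.079, adjusted p = 0.0194), a call lost without siControl replicate 2 or siTG2 replicate 1 (adjusted p from 0.0856 to 0.0983). The ATG5 call was also lost under equal library totals, at -0.11 (adjusted p = 0.304), and under quantile normalization, at -0.13 (adjusted p = 0.225). ATG7, which activates the conjugation, passed in neither, at log2 fold changes of 0.13 and -0.13.

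WIPI1, which binds the marked membrane, rose in siRNF40, at a log2 fold change of 0.21 (SE 0.075, adjusted p = 0.026), and was at a log2 fold change of -0.13 (SE 0.075, adjusted p = 0.202) in siTG2. The siRNF40 call was lost without siControl replicate 1 or 3 or siRNF40 replicate 1 or 3 (adjusted p from 0.0555 to 0.0899). Of its exon bases 24.3% are shared with ARSG on the opposite strand, itself at 0.36 and 0.43, and without a stated strand setting the reads of the 2 cannot be told apart there. The same holds for 18.1% of the ATG7 exon bases, shared with VGLL4.

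Read over both knockdowns, 3 genes were called higher in both (CTSB, ATP6AP1 and GABARAPL1) and 2 lower in both (LAMP1 and ATP6V1B2). GAA, TPP1, ATG9A and ULK1 were called higher in siRNF40 and lower in siTG2, and ASAH1 and LIPA the reverse. Of all tested genes 3.57% were higher in both, 6.52% lower in both, 5.15% higher in siRNF40 and lower in siTG2, and 2.71% the reverse. Of the 41 genes these came to 7.32%, 4.88%, 9.76% and 4.88%. The patterns were not counted among genes with means of at least 100, where more genes were called. The siRNF40 calls of CTSB and GAA and the siTG2 calls of CTSB and GABARAPL1 were lost without some single libraries, as given above. Both knockdowns were compared with the same 3 siControl libraries, so a control library that is high or low moves both values of a gene. A further 13 genes passed in neither knockdown.

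Set directly against each other, siRNF40 was higher than siTG2 in 18 of the 41 genes and lower in 6. The called share was 58.5%, beside 53.3% of all tested genes (26.6% higher and 26.6% lower) and 66.0% of genes with means of at least 100 (34.7% and 31.3%). The libraries of the 2 knockdowns did not overlap for 25 members, 19 with siRNF40 above and 6 with it below, beside 58.3% of all tested genes. Autophagosome genes made up 8 of the 18, with ULK1 at a log2 fold change of 1.36, ATG9A at a log2 fold change of 0.66, MAP1LC3B at a log2 fold change of 0.64 and GABARAPL1 at a log2 fold change of 0.62 leading. UVRAG, at a log2 fold change of -1.02 (SE 0.12, adjusted p = 6.64e-07), was the 1 autophagosome gene lower in siRNF40 than in siTG2. CTSC and NEU1, uncalled against siControl, differed between the knockdowns, at log2 fold changes of -0.36 (SE 0.093, adjusted p = 0.00293) and 0.43 (SE 0.1, adjusted p = 0.00179). ATP6V0D1 and ATG7 did too, at log2 fold changes of 0.42 (SE 0.13, adjusted p = 0.012) and 0.26 (SE 0.11, adjusted p = 0.0455), but the first was lost without siRNF40 replicate 3 or siTG2 replicate 3 (adjusted p from 0.0708 to 0.0848) and the second on leaving out any library but siControl replicate 3 or siRNF40 replicate 2 (adjusted p from 0.0505 to 0.237). Scaling to equal totals moved the share of all calls that were higher in siRNF40 from 49.99% to 34.1% and the members to 10 higher and 10 lower, with 4 autophagosome genes higher in place of 8. The calls lost there were those of ATG7, ATG16L1, BECN1, WIPI1, ATP6V0D1, CTSD, LAMP1 and PSAP.

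The rest of the pathway was read from lists of 180 further genes, of which 172 were tested. In siRNF40, 53 were higher and 46 lower, and in siTG2, 30 were higher and 40 lower, shares of 57.6% and 40.7% called. Of all tested genes 45.3% and 31.3% were called, and of genes with means of at least 100, 57.8% and 40.0%, which these shares nearly equal. The counts of the separate lists below stand beside 21.7% higher and 23.6% lower of all tested genes in siRNF40. In siTG2 these shares were 12.8% and 18.5%. For genes with means of at least 100 they were 27.2% and 30.6% in siRNF40, and 14.3% and 25.7% in siTG2. The median log2 fold change of the 172 genes was 0.046 in siRNF40 and 0.015 in siTG2. In siRNF40 the subunits of the pump, autophagy genes and nutrient sensing genes had more calls higher than lower, with 7 and 2 of 17, 16 and 12 of 41, and 12 and 6 of 29. Membrane and sorting proteins had 2 higher and 10 lower of 25, and fusion and tethering genes 3 and 7 of 22. Other hydrolases gave 13 higher and 9 lower of 38. In siTG2 the other autophagy genes gave 4 higher and 11 lower, and fusion and tethering genes 3 and 9, while other hydrolases gave 10 and 6. The other 3 lists had 5 and 5 (membrane and sorting), 2 and 2 (pump subunits) and 6 and 7 (nutrient sensing).

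These siTG2 counts moved with the scaling and with single libraries. Under equal library totals the higher and lower counts were 17 and 2 for other hydrolases, 10 and 8 for autophagy, 7 and 4 for fusion and tethering, 12 and 3 for membrane and sorting, 5 and 1 for pump subunits and 10 and 1 for nutrient sensing. Of all 17663 tested genes, 3872 were higher and 1890 lower in siTG2 under equal library totals. Under the authors' scaling these were 2263 and 3270, so the shares given above do not apply to the equal-totals counts. Without siControl replicate 1, 3 other hydrolases were lower, 3 membrane and sorting proteins were higher, 4 nutrient sensing genes were lower and 1 fusion gene was higher. Without siControl replicate 2, 3 nutrient sensing genes were lower and 0 fusion genes higher, and without siControl replicate 3, 4 nutrient sensing genes were lower and 2 membrane and sorting proteins higher. Without siTG2 replicate 1, 4 nutrient sensing genes were lower and 0 fusion genes higher. Without siTG2 replicate 3, 3 nutrient sensing genes, 1 membrane and sorting protein and 1 fusion gene were higher. The pump subunit counts of 2 each fell to 1 on leaving out siControl replicate 2 or siTG2 replicate 3, and that of the higher ones also without siControl replicate 1 or siTG2 replicate 2.

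**Figure D4:**
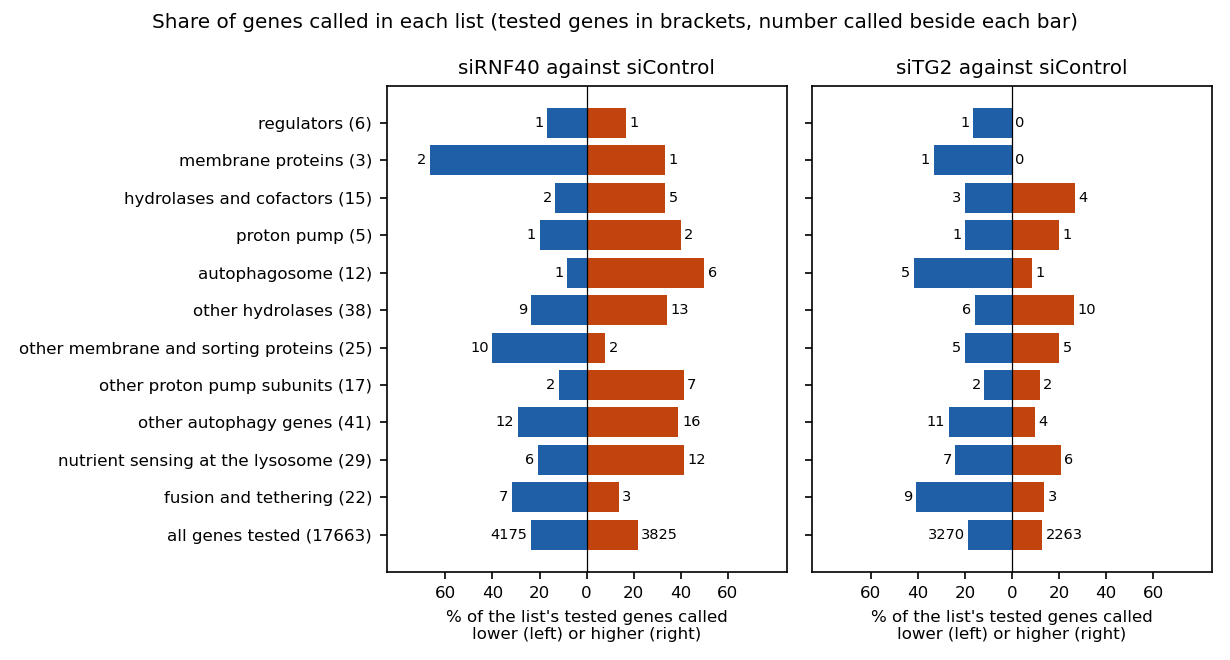
Share of tested genes called lower (left, blue) or higher (right, orange) in each role group, each list of other pathway genes and all tested genes, for siRNF40 and siTG2 against siControl; brackets give the genes tested and the number beside each bar the genes called. The autophagosome bars point mostly right in siRNF40 (6 higher, 1 lower) and mostly left in siTG2 (1 higher, 5 lower).

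Among the other hydrolases, GGH, which trims folate polyglutamates, fell in both knockdowns, at log2 fold changes of -2.40 in siRNF40 and -1.14 in siTG2. CTSO, a cysteine protease of low level, fell in siRNF40 at a log2 fold change of -1.53 and rose in siTG2 at 0.92, as LIPA and ASAH1 did. GALNS, a sulfatase, rose by 0.74 in siTG2 and by 0.44 in siRNF40 (adjusted p = 0.000414). LAPTM4B and SCARB2, proteins of the lysosomal membrane, fell in siRNF40 at log2 fold changes of -1.34 and -1.02, beside the falls of LAMP1 and LAMP2. The sorting receptor SORT1 fell by 0.69. The chloride transporter CLCN7 was lower in siRNF40, at -0.27 (adjusted p = 0.0186). That call was lost without siControl replicate 2 or 3 or siRNF40 replicate 2 (adjusted p from 0.058 to 0.0631). It was also lost under quantile normalization (adjusted p = 0.0706). In siTG2, LAPTM4B and SCARB2 fell by 0.44 and 0.34, and CLCN7 rose by 0.53. The SCARB2 call in siTG2 was lost under quantile normalization (adjusted p = 0.0507). The channel gene TPCN2 was at a log2 fold change of 0.44, with adjusted p from 0.064 to 0.093 without siControl replicate 1 or siTG2 replicate 2 or 3.

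Further pump subunits that rose in siRNF40 were ATP6V0E1 at a log2 fold change of 0.71, ATP6V1F at a log2 fold change of 0.63 and ATP6V1E2 at a log2 fold change of 0.62. The 4 genes of this list called in siTG2 were ATP6V1C2 at a log2 fold change of 0.77, ATP6V0E2 at a log2 fold change of -0.51, ATP6V0A2 at a log2 fold change of -0.39 and ATP6V1G1, named after its value was seen, at a log2 fold change of 0.27. ATP6V1C2 had adjusted p from 0.0689 to 0.0796 without siControl replicate 2 or siTG2 replicate 2, and adjusted p = 0.0744 under quantile normalization. ATP6V0E2 had adjusted p from 0.054 to 0.0567 without siControl replicate 2 or siTG2 replicate 3, and ATP6V0A2 had adjusted p = 0.0769 under equal library totals. In siRNF40, ATP6V0E2 was called higher, at 0.58 (adjusted p = 0.00206), and ATP6V0A2 lower, at -0.37 (adjusted p = 0.00625). ATP6V1C2 did not pass there, at -0.57 (adjusted p = 0.0565). Of the genes that act on mTORC1 at the lysosome, RHEB, its activating GTPase, fell in siRNF40 from 4096 ± 301 to 1898 ± 190.2, at a log2 fold change of -1.11. The folliculin partner FNIP2 and the nutrient sensing subunit SEH1L fell by 1.10 and 0.93. RHEB and SEH1L were also lower in siTG2, at log2 fold changes of -0.27 (adjusted p = 0.039) and -0.24 (adjusted p = 0.02). Both calls were lost under equal library totals (adjusted p from 0.312 to 0.329) and without some single libraries. In siTG2 the sestrins SESN3 and SESN1, which restrain mTORC1, rose by 1.12 and 0.71, and KPTN was at a log2 fold change of 0.45, with adjusted p from 0.0724 to 0.103 without siControl replicate 3 or siTG2 replicate 3 and adjusted p = 0.0532 under quantile normalization. SESN1 and KPTN were also called higher in siRNF40, at log2 fold changes of 0.40 (adjusted p = 0.0117) and 0.44 (adjusted p = 0.0138). Each of these calls was lost without some single libraries (adjusted p from 0.0523 to 0.0828). SESN3 did not pass in siRNF40, at -0.23 (adjusted p = 0.189).

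SQSTM1 and ATG12 had the largest siTG2 changes of the other autophagy genes. SQSTM1, a receptor that carries ubiquitinated cargo into autophagosomes, read 21331, 21021 and 21004 normalized reads in siControl, 32181, 27805 and 31958 in siRNF40 and 43883, 47529 and 42259.9 in siTG2. It was above siControl in every library of both knockdowns, at log2 fold changes of 0.53 (SE 0.066, adjusted p = 2.09e-06) and 1.08 (SE 0.066, adjusted p = 5.56e-10). ATG12, which is joined to ATG5 and acts with ATG16L1, read 19769, 19939.6 and 20190.0 normalized reads in siControl, 22019, 24044 and 21124 in siRNF40 and 7096, 6350.3 and 7243 in siTG2. Its siTG2 mean was 34.5% of siControl, at a log2 fold change of -1.54 (SE 0.065, adjusted p = 1.03e-11). ATG12 and ATG16L1 were thus both called lower in siTG2, while the call of ATG5 was lost under the scalings and left-out libraries given above. PIK3R4, the scaffold of the kinase complex that holds BECN1, fell by 0.62 in siTG2 and by 0.48 in siRNF40 (adjusted p = 0.00137). Its direct difference of 0.14 did not pass (adjusted p = 0.28). In siRNF40 the leading genes of this list were TECPR1, DRAM1 and VAMP8, at log2 fold changes of 0.76, 0.72 and 0.69. TECPR1 and VAMP8 take part in the fusion of autophagosomes with lysosomes, and DRAM1 is a known target of p53. From the list of fusion and tethering genes, STX7 and VAMP7 fell in siRNF40, at log2 fold changes of -1.17 and -0.99. VPS39 and VPS29, also placed in this list, fell in siTG2, at log2 fold changes of -0.76 and -0.61. VPS39 was also lower in siRNF40, at -0.27 (adjusted p = 0.00371). PLEKHM1, an adaptor for tethering, rose by 0.68 in siRNF40 and fell by 0.56 in siTG2.

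In 3' untranslated regions, 2 words of 7 bases were searched because earlier work on these libraries had picked them as going with lower transcripts, GTCTTCA in siRNF40 and GCGCCCT in siTG2. GTCTTCA is in the 3' untranslated region of 3 of 40 members searched (7.5%; RRAGD, CTSC and LIPA), beside 12.4% of 12771 protein-coding genes, of which 54.3% with the word were lower in siRNF40 and 25.7% without it. LIPA was called lower there, and RRAGD and CTSC did not pass. GCGCCCT is in 1 member of 40, CTSD, beside 2.76% of genes, of which 39.9% with the word were lower in siTG2 and 22.6% without it. CTSD was called lower in siTG2. The 2 sites of the called genes follow, with the word in capitals, from GENCODE 29 transcripts.
LIPA: agttttccggcGTCTTCAaaaacaaattg
CTSD: cactgtcctggGCGCCCTggaagccggcg
The words were picked on these same libraries, so the shares of lower genes with and without them carry no independent weight. The siRNA sequences were not analysed here, and the part of these sites in the LIPA and CTSD results was not tested.

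In the authors' deposited tables, 13 of the 41 genes were higher and 7 lower in siRNF40, and all 20 were called the same way by limma, which added CTSB and CTSZ. In the authors' deposited table for siTG2, 6 were higher and 11 lower, and all 17 were shared with limma in the same direction. Over all tested genes the authors' tables called 43.3% in siRNF40 and 30.8% in siTG2.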

How the data were processed

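Polyadenylated RNA of 9 HCT116 libraries was measured. The submitters' processing notes name Trim Galore 0.4.1, STAR 2.7.0, HTSeq 0.12.4 and DESeq2, and the builds hg19 and hg38. The deposited table holds a signal per gene, a count scaled by the DESeq2 size factor of its library, with hg19 coordinates, and whole reads were recovered within 0.001 for 100% of values. Columns named NC are read as siControl because the authors' comparison tables give the same means. Those tables give log2 fold changes, a test score and p-values by the authors' DESeq2.

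The test was limma 3.58.1 with a trend (R 4.3.3), two-sided, on log2(value + 1), in 1 fit of 3 group means over 9 libraries and 17663 genes with a mean of at least 10, with Benjamini-Hochberg adjustment over all of them. The method was tested on simulated data. Levels are mean ± SD, and SE is the moderated standard error. Nothing in the labels says that the libraries of a group are separate cultures, and p-values then cover only the spread among these libraries, which may be technical. Alternatives were edgeR 4.0.16 and DESeq2 1.42.0 on recovered reads, other scalings, pseudocounts and filters, a replicate block, 6 libraries and each library left out. The genes and lists were chosen with earlier results of these data known. RNF40, TGM2, TFEB, TFE3 and MITF are always given by library. So are, for each role and knockdown, up to 4 called genes of largest change with a mean of 50 or more, and all genes called in opposite directions. From each other list up to 3 such genes are named, and a gene this rule would name is not reported here. Figures, sequence searches and counts used Python 3.11.15, pandas 2.3.3 and matplotlib 3.10.9. Depth was 29161285 to 35743918 reads in genes, and whether counting used strand is not given in the sources used here.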

Additional observations from a re-analysis of the deposited data

How the results depend on the processing

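Of the member calls, 16 of 22 in siRNF40, 12 of 17 in siTG2 and 16 of 24 in the direct comparison kept their direction and side of the threshold in all 19 alternatives. Of the members not called, 7 of 19 in siRNF40, 10 of 24 in siTG2 and 6 of 17 in the direct comparison were called in some alternative. Under equal library totals 13 members were higher in siTG2, and the direct comparison gave 10 higher and 10 lower. Quantile normalization gave 11 higher in siTG2. It also reversed PSAP, to -0.089 in siRNF40, 0.15 in siTG2 and -0.24 between them, and ATG12 in siRNF40, to -0.0051. The cause was not tested. Without siTG2 replicate 2, 3 members were higher in siTG2. Leaving out each library in turn gave 10 to 16 higher and 7 to 8 lower in siRNF40, 3 to 7 and 10 to 13 in siTG2, and 16 to 18 and 6 to 7 in the direct comparison. The hydrolases called higher in siRNF40 were 5, but 3 by edgeR and 1 under equal library totals or without a filter. Same-numbered libraries did not deviate together over all tested genes (correlations from -0.075 to 0.081). With 3 libraries a group this does not settle whether they were handled as numbered sets. With the replicate number as a block the counts were 13 higher and 7 lower in siRNF40, 6 and 11 in siTG2 and 17 and 6 directly, with 2 hydrolases higher in siRNF40. With 3 libraries a group, genes of low level such as MITF and TFEB have the widest errors.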
